A study of Mus musculus with 2 samples.

Results

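Tnf, the 5 genes of the NF-kappaB subunits and 4 genes through which the pathway regulates itself were followed in RAW264.7, a leukaemic mouse line with the character of monocytes and macrophages, as a set of 10 members among the 56791 genes of an RNA-seq count table. The members were taken by gene symbol, and all 10 symbols were in the table. Both cultures were wild type and, as the treatment text in the labels is read here, both were kept for 24 h with recombinant mouse IL-4 at 20 ng, an amount given without a volume, in DMEM with fetal bovine serum. The first culture, called treated here, also received 10000000 particles of a preparation named FAPD10-exos, whose source the labels do not describe, and the other received vehicle. Each group held 1 library, so no difference had a replicate check, no p-value could be given and all values describe these 2 libraries. No untreated culture without IL-4 was analysed here, so the values do not show what IL-4 itself did to these genes.

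TNF is a cytokine that macrophages make in quantity and that acts through NF-kappaB. In resting cells NF-kappaB dimers are held in the cytoplasm by inhibitors of the IkappaB family. A signal at a receptor activates the IkappaB kinase complex, the inhibitor is degraded, and the dimer moves to the nucleus, where Tnf and many other inflammatory genes are its targets. Several of these targets shut the pathway down again: Nfkbia encodes the inhibitor IkappaB-alpha, and Tnfaip3 encodes A20, a ubiquitin-editing enzyme. Nfkbiz and Bcl3 encode atypical IkappaB proteins that act in the nucleus with p50 or p52. IL-4 drives macrophages towards alternative activation, a state in which TNF output is usually low.

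Levels are CPM, TMM-scaled read counts relative to library size, and 1 CPM stood for 35.6 counts (treated) and 37.8 counts (vehicle). Paired values joined by "against" give the treated library before the vehicle library. Ratios are treated over vehicle, and the range in parentheses is a 95% interval (exact Clopper-Pearson) that covers counting error only. A gene was called lower or higher when it differed by at least 1.5-fold and its interval excluded 1, and measured when its mean was at least 1 CPM. The libraries held 37196241 and 36152743 counts. All 10 macrophage markers examined were measured, with a summed level of 2222 against 2427 CPM, to which Lyz2 alone gave 1013 against 1110 CPM. Single markers went both ways, with Adgre1 at 6.94 against 2.38 CPM, Spi1 at 191 against 119.8 CPM and Ptprc at 200.3 against 311 CPM. Of 6 fibroblast or fibro-adipogenic markers 5 had 0 counts in both libraries and Pdgfra had 0 against 2. The muscle marker Des had 0 against 10 counts, and the endothelial markers Pecam1 and Cdh5 24 against 6 and 2 against 4, while Myod1, Pax7 and Cd3e had 0 in both. The part of these differences in the members' values was not tested. Ratios went with gene length: Spearman's rho between ratio and exon length was -0.45 over 12264 measured genes within this pair of libraries, as a description across genes, which are not replicates. Under total-count, median-of-ratios and upper-quartile scaling the median of all log2 ratios shifted by -0.13, -0.04 and 0.07, and members are to be read relative to that. In bulk libraries, fewer cells expressing a gene and less of its RNA per cell cannot be told apart.

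Of the 9 measured members 3, namely Nfkbiz, Tnf and Rela, were called lower and 0 higher, where 19.8% of all 12264 measured genes were called lower and 17.1% higher. At 33.3% of 9 genes the share of lower members rests on few genes, and no more is read from it. Past 2-fold were 2 members, Nfkbiz and Tnf, both lower, beside 8.64% of all measured genes lower and 4.19% higher. The counting interval lay below 1 for 5 of the 9 (Tnf, Nfkb1, Rela, Nfkbia and Nfkbiz) and above 1 for 1 (Relb), beside 36.6% and 37.3% of all measured genes. The median log2 ratio of the 9 was -0.17, beside 0.01 over all measured genes. Ratios of the measured members ran from 0.439 for Nfkbiz to 1.42 for Relb, so the members did not move as a block. After subtraction of the trend with exon length the same 3 members were called lower and 0 higher, against 16.4% and 12.2% of all measured genes, and the median was 0.02.

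**Figure D1:**
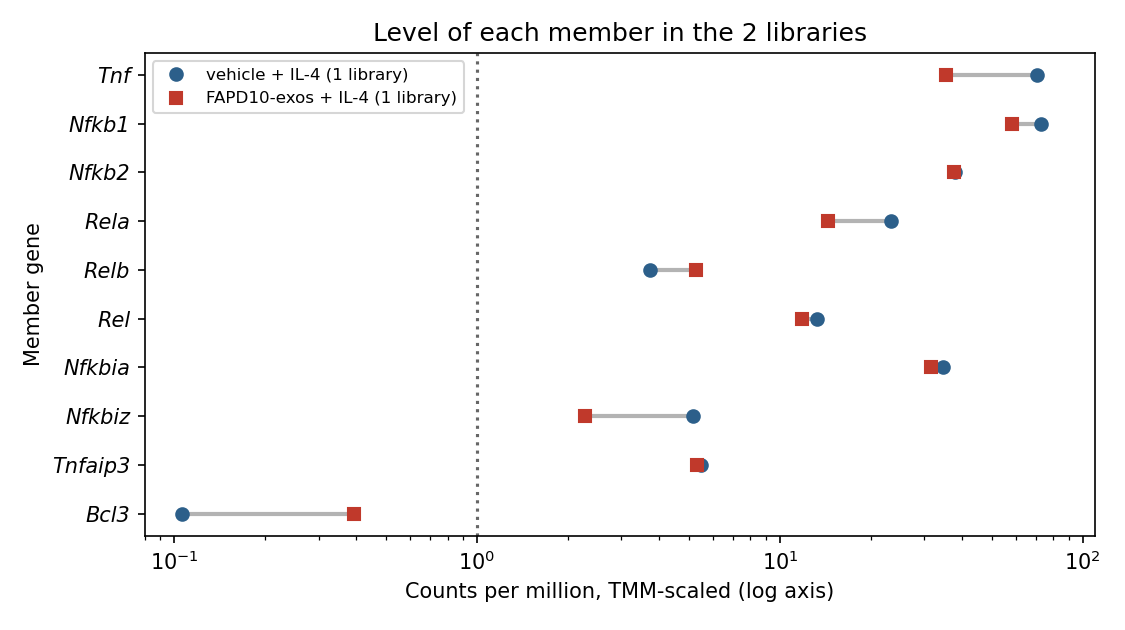
Level of each member in the vehicle (blue circles) and treated library (red squares), in TMM-scaled CPM on a log axis; each point is 1 library and the dotted line marks 1 CPM. Tnf, Rela and Nfkbiz have the widest gaps to the left among members above 1 CPM, Relb lies to the right, and Bcl3 is under 1 CPM in both libraries.

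Promoter sequences are shown because feedback genes of NF-kappaB are themselves its targets, and the members can be compared by the sites they carry. They come from RefSeq on build GRCm38.p6, where 7 of the 10 members had an entry; Nfkb1, Relb and Nfkbiz had none and are named only. The consensus searched was the NF-kappaB site, that is 3 G bases, a purine, any base, A or T, 2 pyrimidines and 2 C bases, on both strands, in the 300 bases from 250 before to 50 after each annotated start. The search gave at least 1 match in 1480 of 32851 promoters (4.51%) and in 7 of the 10 promoters that belong to these 7 members. By gene, a match was found for 1388 of 27025 genes (5.14%) and for 5 of the 7 members: Nfkb2, Rel, Nfkbia, Tnfaip3 and Bcl3. Tnf and Rela had 0 matches. The 130 bases before the most upstream start follow, 5′ to 3′ along the gene, with each match to the consensus on either strand in capitals, where overlapping matches merge.
Tnf: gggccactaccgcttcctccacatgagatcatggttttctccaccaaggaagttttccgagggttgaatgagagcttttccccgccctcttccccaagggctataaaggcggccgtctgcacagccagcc
Rela: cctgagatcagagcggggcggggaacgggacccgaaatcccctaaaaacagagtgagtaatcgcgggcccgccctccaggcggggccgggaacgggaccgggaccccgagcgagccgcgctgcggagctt
Nfkb2: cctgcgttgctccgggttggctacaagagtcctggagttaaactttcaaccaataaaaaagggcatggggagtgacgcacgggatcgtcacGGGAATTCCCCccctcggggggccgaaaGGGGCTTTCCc
Rel: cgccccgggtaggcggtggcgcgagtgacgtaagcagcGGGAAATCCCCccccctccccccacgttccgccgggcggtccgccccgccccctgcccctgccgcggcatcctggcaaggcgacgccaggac
Nfkbia: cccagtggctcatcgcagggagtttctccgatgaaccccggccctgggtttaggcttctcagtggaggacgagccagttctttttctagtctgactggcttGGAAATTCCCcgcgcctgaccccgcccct
Tnfaip3: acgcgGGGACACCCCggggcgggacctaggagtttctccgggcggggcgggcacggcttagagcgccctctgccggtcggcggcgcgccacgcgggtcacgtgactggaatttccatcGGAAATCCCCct
These stretches lie at chr17:35202008-35202137 (minus strand), chr19:5637411-5637540 (plus), chr19:46304607-46304736 (plus), chr11:23770970-23771099 (minus), chr12:55492648-55492777 (minus) and chr10:19015411-19015540 (minus). In Nfkbia the match spans bases -29 to -20 from the start, in Rel the overlapping matches span -92 to -82, in Tnfaip3 the matches span -125 to -116 and -12 to -3, and in Nfkb2 -39 to -29 and -11 to -2. In Bcl3 the match falls just after the start, at bases 3 to 12, and is not shown. The measured members with a match had ratios from 0.891 (Rel) to 0.991 (Nfkb2), and the members without one were Tnf at 0.4996 and Rela at 0.621. With exon length corrected, those with a match ran from 0.699 (Nfkbia) to 1.21 (Tnfaip3), and Tnf was at 0.381 and Rela at 0.559. This grouping covers 6 measured genes, was made with the ratios known and is a description only: a match is not a bound site, and sites outside this window were not searched.

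Tnf, the ligand, was the member with the most counts behind a 1.5-fold difference. It had 1255 against 2668 counts, which is 35.3 against 70.6 CPM. The treated library had the lower level, and Tnf was 2.002-fold lower (1.87 to 2.14) there. Low counts were mostly even, so both ends of a read pair may have been counted, and with counts halved the interval was 1.82 to 2.20-fold lower. Only 8.59% of measured genes had a lower ratio. Tnf has short exons, 1639 bases in all, and genes of that length were mostly higher in the treated library: among the 1227 measured genes of 1031 to 1853 bases, 9.94% were called lower and 34.5% higher, and the median log2 ratio was 0.40. Of these 61 had a lower ratio than Tnf. With the trend in length subtracted, Tnf stood 2.63-fold below vehicle (2.46 to 2.81). In the deposited table Tnf lies on chromosome 17, 35418357 to 35420983 (minus strand), and 0% of its exon bases are shared with another gene. No source used here names the mouse build of the table. It is not the GRCm38.p6 of the promoter stretches, where the bases before the Tnf start lie at 35202008 to 35202137. Coordinates of the table and of the promoters are therefore not comparable.

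The 5 subunits differed among themselves. Rela encodes p65, the main activating subunit of the canonical pathway. It had 514 against 879 counts, or 14.4 against 23.3 CPM, and was 1.61-fold lower (1.44 to 1.80) in the treated library. Its exons span 3072 bases, and of 1227 genes of 2595 to 3267 bases 7.91% were called lower and 74 had a lower ratio than Rela. Relb, which pairs with p52 in the non-canonical pathway, went the other way. It had 188 against 141 counts, or 5.28 against 3.73 CPM, a ratio of 1.42 (1.13 to 1.77) that was above 1 but under the 1.5-fold call. Its interval with counts halved was 1.02 to 1.94. With the exon length correction the Relb ratio was 1.36 (1.08 to 1.70). With the principal transcript it was 1.24 (0.995 to 1.56), an interval that included 1. Rel, which encodes c-Rel, an activating subunit abundant in blood cells, had 422 against 503 counts at 11.9 against 13.3 CPM. Its ratio of 0.891 (0.781 to 1.02) had an interval that included 1, and it turned to 1.10 with the exon length correction and 1.43 with that for the principal transcript.

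Nfkb1 and Nfkb2 encode the precursors p105 and p100, which are processed to p50 and p52 and which also act as inhibitors before processing. Nfkb1 had 2074 against 2758 counts, the most of any member, at 58.3 against 73.0 CPM. Its ratio of 0.799 (0.754 to 0.846) lay below 1 but inside the 1.5-fold limit. Nfkb1 has the longest exon model of the members, 12061 bases, in a length class of which 51.8% were called lower, and its ratio was 1.20 (1.13 to 1.27) after the length correction, so its direction turned. With the principal transcript of 4117 bases as the length, an alternative chosen after the data were seen, it was 0.940. Nfkb2 had 1337 against 1433 counts at 37.6 against 37.9 CPM, a ratio of 0.991 (0.919 to 1.07), and with counts halved the interval was 0.891 to 1.10. Of the exon bases of Nfkb2, 20.5% lie in genes on the opposite strand, Psd and 4833438C02Rik, and whether the counting used strand is not given, so that value is uncertain.

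**Figure D2:**
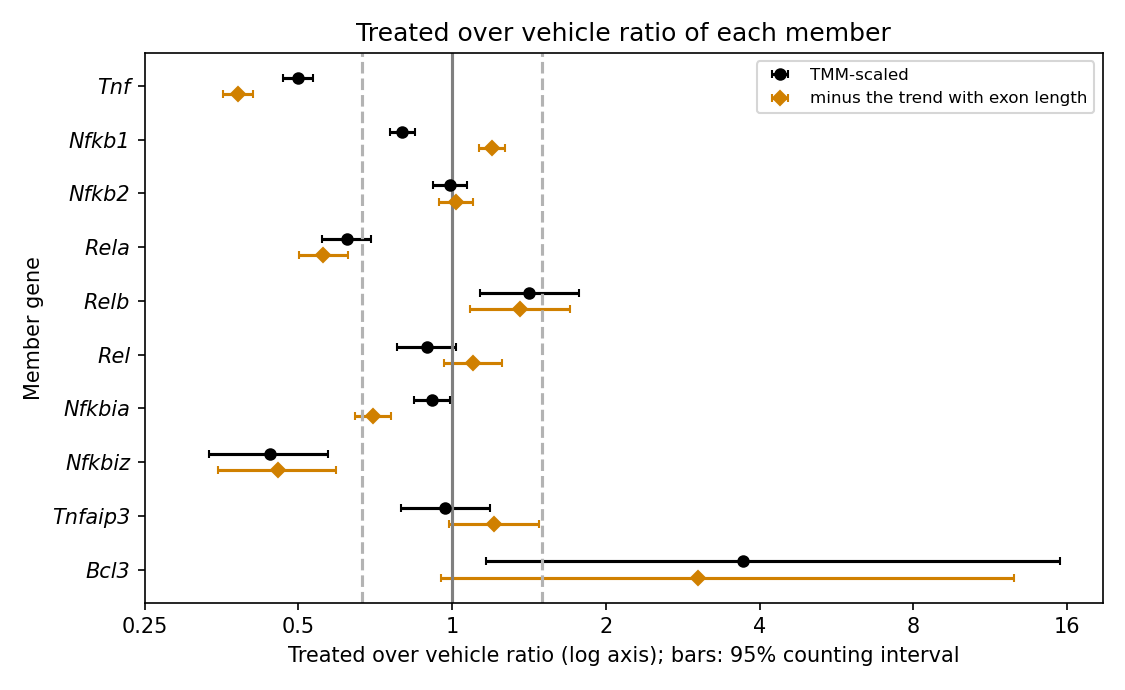
Treated over vehicle ratio of each member on a log axis with 95% counting intervals as bars, TMM-scaled (black circles) and after subtraction of the trend with exon length (orange diamonds); dashed lines mark 1.5-fold in either direction. Tnf, Rela and Nfkbiz lie left of the lower dashed line both ways, and the Nfkb1 ratio moves from 0.799 to 1.20.

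A ratio between a pair of members within each library does not depend on the scaling. It still carries the trend with exon length, which was not subtracted from the pair values or their counts. With length corrected the single ratios were 0.381 for Tnf, 0.559 for Rela and 1.36 for Relb. Rela and Tnf were both lower relative to Relb. There were 6.23 Rela counts per Relb count in the vehicle and 2.73 in the treated library, so Rela relative to Relb was 2.28-fold lower (1.77 to 2.93). Tnf counts per Relb count went from 18.9 in the vehicle to 6.68 in the treated library, 2.83-fold lower (2.24 to 3.59). Tnf was also lower relative to Rela, by 1.24-fold (1.09 to 1.42). These intervals are exact conditional ones for counting error. Of 45 such pairs 35 had an interval that excluded 1, or 27 with counts halved, and no adjustment over the pairs was made. Without the pairs that include Bcl3, 27 of 36 excluded 1, or 24 with counts halved. Pairs of all measured genes were not examined. Among single measured genes the interval lay below 1 for 36.6% and above 1 for 37.3%. No more is read from the pair counts. The widest gap among measured members was between Relb and Nfkbiz, with 2.32 against 0.719 Relb counts per Nfkbiz count, 3.23-fold higher (2.27 to 4.596).

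Per kb of exon, the 5 subunits summed to 20.7 against 24.6 CPM per kb. Rela made up 22.7% of that level in the treated library and 30.7% with vehicle. Relb made up 6.58% and 3.90%, and Nfkb2 39.6% and 33.6%. The shares of Nfkb1 (23.4% and 24.6%) and Rel (7.68% and 7.24%) were closer together. The exon length of Nfkb1 in the table is 12061 bases and 4117 in its principal transcript, and per kb of the principal transcript Nfkb1 was the largest share, at 40.0% against 42.4%. On that scale Rela was 15.02% and 20.5%, again the smaller share in the treated library. The order of the subunits by level thus depends on the length used: on exon length Nfkb2 was first in both libraries, and Relb was last in both. On principal transcript length Nfkb1 was first in both, while Rel (1.59 against 1.78 CPM per kb) and Relb (2.39 against 1.69 CPM per kb) changed places at the end, Rel being last in the treated and Relb in the vehicle library.

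**Figure D3:**
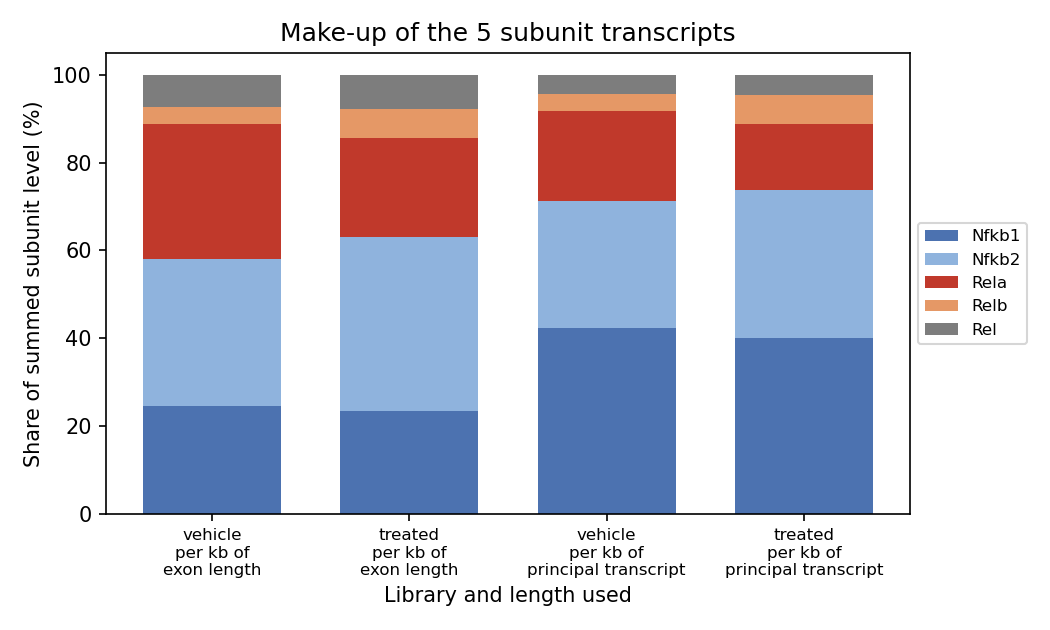
Share of each of the 5 subunit transcripts in their summed level in percent, by library, per kb of exon length in the deposited table (left pair) and per kb of principal transcript (right pair). Rela takes 30.7% in the vehicle and 22.7% in the treated library on the first scale, and 20.5% and 15.02% on the second.

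Of the 4 feedback genes 3 were measured, and of these Nfkbiz was called. Nfkbiz encodes IkappaB-zeta, a nuclear cofactor that a subset of late NF-kappaB targets requires. It had 81 against 196 counts, or 2.28 against 5.19 CPM, and was 2.28-fold lower (1.75 to 2.99) in the treated library. Of 1226 genes of similar exon length, 60 had a lower ratio. Relative to Tnf it did not separate: there were 15.5 against 13.6 Tnf counts per Nfkbiz count, a ratio of 1.14 (0.866 to 1.51).

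Nfkbia, the rapid feedback inhibitor, had 1121 against 1304 counts at 31.5 against 34.5 CPM, a ratio of 0.913 (0.842 to 0.990) and, with counts halved, an interval of 0.815 to 1.02 that included 1. After the length correction its ratio was 0.699 (0.644 to 0.757), still inside the 1.5-fold limit. Tnf relative to Nfkbia, a pair of about equal exon length (1639 and 1610 bases), was 1.83-fold lower (1.64 to 2.03), with 1.12 against 2.05 Tnf counts per Nfkbia count. Tnfaip3 had 190 against 208 counts at 5.34 against 5.50 CPM, a ratio of 0.970 (0.793 to 1.19). Nfkbiz relative to Tnfaip3 was 2.21-fold lower (1.58 to 3.10). Bcl3 had 14 against 4 counts, 0.393 against 0.106 CPM, and was below the 1 CPM filter and so not among the calls. Its ratio of 3.72 (1.17 to 15.5) rests on few counts, and the interval with counts halved, 0.708 to 36.7, included 1. Of its exon bases 6.51% overlap Gm16175 on the opposite strand.

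In the deposited table Nfkb1 lies on chromosome 3, 135290416 to 135397308 (minus strand), Nfkb2 on chromosome 19, 46292759 to 46300824 (plus strand), Rela on chromosome 19, 5687511 to 5698158 (plus strand), Relb on chromosome 7, 19340142 to 19363363 (minus strand) and Rel on chromosome 11, 23686847 to 23720970 (minus strand). Nfkbia lies on chromosome 12, 55536195 to 55539432 (minus strand), Nfkbiz on chromosome 16, 55631738 to 55659262 (minus strand), Tnfaip3 on chromosome 10, 18876658 to 18891405 (minus strand) and Bcl3 on chromosome 7, 19542387 to 19556695 (minus strand). Relb and Bcl3, the members with the highest ratios, are 179023 bases apart on chromosome 7. Relb was not called, and Bcl3, at 14 against 4 counts, was below the filter. Rela and Nfkb2 are 40594600 bases apart on chromosome 19. A link between position and ratio was not tested.

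**Figure D4:**
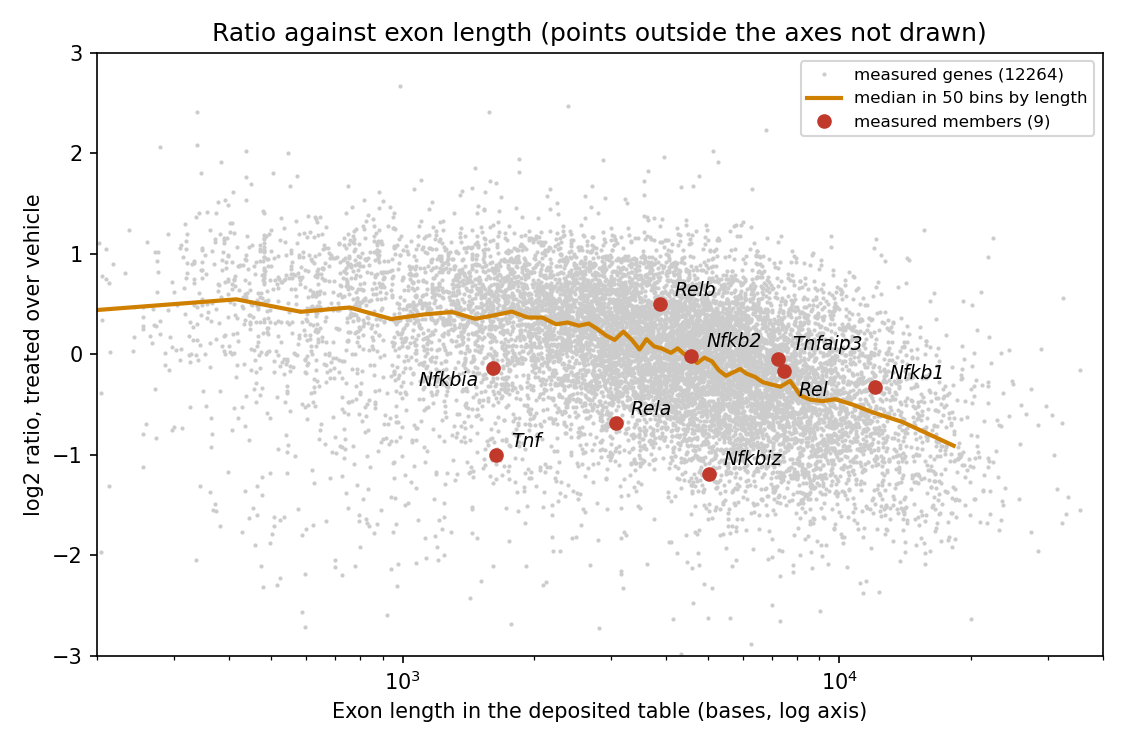
Log2 ratio of treated over vehicle against exon length in bases (log axis) for the 12264 measured genes (grey), the median in 50 bins by length (orange line) and the 9 measured members (red). The line falls with length; Tnf, Rela, Nfkbiz and Nfkbia lie below it, Nfkb2 is near it, and Nfkb1, Rel, Tnfaip3 and Relb lie above it.

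Of the genes that surround the members in the pathway, 92 of 109 on 7 lists were measured; 25 (27.2%) were called lower and 13 (14.1%) higher, and their median log2 was -0.14. Over all measured genes the shares were 19.8% and 17.1%. After the length correction 17 (18.5%) were lower and 9 (9.78%) higher, beside 16.4% and 12.2% of all measured genes. On the list of TNF relatives and receptors, 6 of 7 genes were measured, 2 were called lower and 2 higher. The median log2 ratio was 0.10, and -0.14 with length corrected, so its sign turned. Tnfrsf1a, the widely expressed TNF receptor, had 624 against 442 counts and a ratio of 1.499 (1.33 to 1.70), just under the threshold. Tnfrsf1b, the second TNF receptor, had 86 against 139 counts and was 1.52-fold lower (1.15 to 2.02). Tnfrsf11a, the receptor RANK, was 1.65-fold lower (1.44 to 1.90). RANK, the lymphotoxin beta receptor and CD40 can all feed the non-canonical pathway. Ltbr, the lymphotoxin beta receptor, was 1.69-fold higher (1.51 to 1.89) and Cd40 was 1.73-fold higher (1.32 to 2.27). Of the 5, Tnfrsf1b and Cd40 stayed past 1.5-fold after the length correction, at -0.68 and 0.68 in log2. With the principal transcript Cd40 stood at 0.77 and Tnfrsf1b, at -0.38, was inside 1.5-fold.

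On the list of TNF mRNA turnover and shedding, 13 of 15 genes were measured, 3 were called lower and 1 higher. The median log2 ratio was -0.18, but 0.14 with length corrected and 0.22 with the principal transcript, so its sign turned. Adam17, the protease that sheds TNF, had 64.6 against 151 CPM and was 2.34-fold lower (2.23 to 2.46). Rhbdf2, which encodes iRhom2, the partner that ADAM17 needs in macrophages, had 129 against 298 counts and was 2.18-fold lower (1.76 to 2.70). With length corrected, they stood at -0.91 and -0.96 in log2. The other gene called lower was Rc3h2, the RNA-binding protein Roquin-2, at a ratio of 0.651 and 0.29 in log2 after the correction. Zfp36l1, a relative of the TNF mRNA decay factor tristetraprolin, was 1.60-fold higher (1.40 to 1.83). With length corrected its ratio was 1.42, under the threshold. Zfp36, tristetraprolin itself, had 119 against 110 counts and a ratio of 1.15 (0.879 to 1.503), and Zc3h12a, the RNase Regnase-1, had 44 against 33 counts, 1.42 (0.881 to 2.30). For both the interval included 1.

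Among the kinases, 13 of 13 genes were measured, 3 were called lower, 0 higher, and the median log2 ratio was -0.33. That median was -0.23 with length corrected and -0.12 with the principal transcript. Ikbkg, the regulatory subunit NEMO of the IkappaB kinase, was 1.90-fold lower (1.80 to 2.01), Chuk, its kinase subunit IKK-alpha, 1.63-fold lower (1.49 to 1.79), and Tank, a scaffold of the TBK1 kinase, 1.74-fold lower (1.63 to 1.86). With length corrected, Chuk at -0.64 and Tank at -0.61 were still past 1.5-fold and Ikbkg at -0.53 was not. Ikbkb, the other kinase subunit IKK-beta, had a ratio of 0.851 (0.797 to 0.909) and stood at 0.68 in log2 after the correction for its exon length of 19078 bases, where it was called higher, but at -0.05 with its principal transcript of 3580 bases. Chuk, at -0.54, was also inside 1.5-fold with the principal transcript. Among receptor adaptors and ubiquitin ligases, 15 of 15 genes were measured, 3 were called lower, 1 higher, and the median log2 ratio was 0.08. That median was 0.20 with length corrected. Cflar, the inhibitor of caspase-8 that protects cells from TNF, was 2.10-fold lower (1.97 to 2.23), Traf6 1.66-fold lower (1.36 to 2.04) and Traf3 1.58-fold lower (1.44 to 1.73). None of these 3 was past 1.5-fold after the length correction, where they stood at -0.45, -0.41 and -0.34 in log2. With length corrected 0 of the 15 were called lower and 1 higher, beside 16.4% and 12.2% of all measured genes. That gene was Traf1, with 927 against 672 counts. Its ratio was 1.47 (1.33 to 1.62) before and 2.01 (1.82 to 2.22) after the correction. Tradd, the gene called higher before the correction, had a ratio of 1.51 that became 1.15.

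Other inhibitors and ubiquitin editors were split: 15 of 15 genes were measured, 3 were called lower, 3 higher, and the median log2 ratio was -0.10. Itch, a ubiquitin ligase that works with A20, was 2.13-fold lower (1.91 to 2.38) and the deubiquitinase gene Otud7b 1.68-fold lower (1.62 to 1.74), whereas Otulin, the enzyme that removes linear ubiquitin chains, was 1.70-fold higher (1.57 to 1.83). After the length correction only Itch of these, at -0.64, was past 1.5-fold. The further IkappaB genes Nfkbib, Nfkbie and Nfkbid had ratios of 1.38, 1.23 and 0.933, between the thresholds like Nfkbia. Tnip3, a partner of A20 singled out after its values were seen, was 1.56-fold higher (1.498 to 1.63). With length corrected its ratio was 2.23 (2.14 to 2.33), and it was still called higher.

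NF-kappaB target genes did not share a direction. Of 31 targets 17 were measured, 6 (35.3%) were called lower and 4 (23.5%) higher, beside 19.8% and 17.1% of all measured genes, with a median log2 ratio of -0.05. Those called lower were Cxcl2, Ptgs2, Nos2, Bcl2l1, Plau and Clec4e, and those called higher Ccl4, Sod2, Gadd45b and Bcl2a1d. With length corrected 6 (35.3%) were lower and 2 (11.8%) higher, beside 16.4% and 12.2% of all measured genes. The list median was then -0.21, and -0.32 with the principal transcript. The 17 genes are few, and no more is read from these shares. Nos2, which makes nitric oxide in activated macrophages, was 2.26-fold lower (1.57 to 3.30) and the chemokine gene Cxcl2 2.17-fold lower (1.67 to 2.85), on the side of Tnf. Gadd45b, a stress-response gene, had 236 against 76 counts and was 3.30-fold higher (2.54 to 4.33). All 3 kept their side after the length correction, at -1.17, -1.48 and 1.34 in log2. Without the length correction Ptgs2, Bcl2l1 and Plau, singled out after their values were seen, were lower at ratios of 0.557, 0.490 and 0.610. Sod2 was higher at 1.57, also without it. Targets known to depend on IkappaB-zeta were at or near 0: Il6 and Il12b had 0 counts in both libraries, Lcn2 had 0 against 2, Saa3 4 against 0 and Csf3 2 against 0. A count of 0 allows up to 3 counts, or 0.0843 CPM (treated) and 0.0794 CPM (vehicle), and no fold is given for these targets.

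Among nuclear cofactors, 13 of 13 genes were measured, 5 were called lower, 2 higher, and the median log2 ratio was -0.20. After the length correction 4 were lower and 2 higher, and the median was -0.36. Lower were 38.5% of these 13 genes before and 30.8% after the correction, beside 19.8% and 16.4% of all measured genes, and higher 15.4% both times, beside 17.1% and 12.2%. With the principal transcript 2 of the cofactors were lower and 1 higher, beside 1206 and 1014 of 9966 measured genes. The 13 genes are few, and no more is read from these shares. Ep300 and Crebbp, the acetyltransferases that p65 recruits, were 3.20-fold lower (2.96 to 3.47) and 2.90-fold lower (2.67 to 3.15), and Ncor1, a corepressor, was 2.87-fold lower (2.76 to 2.98). These are long transcripts, and after the length correction they stood at -0.99, -0.88 and -0.90 in log2, still past 1.5-fold. With the principal transcript Crebbp, at -0.56, was inside 1.5-fold and the other two were not. Of the higher genes, Commd1, which promotes the removal of p65 and was singled out after its values were seen, was 2.27-fold higher (2.14 to 2.41).

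**Figure D5:**
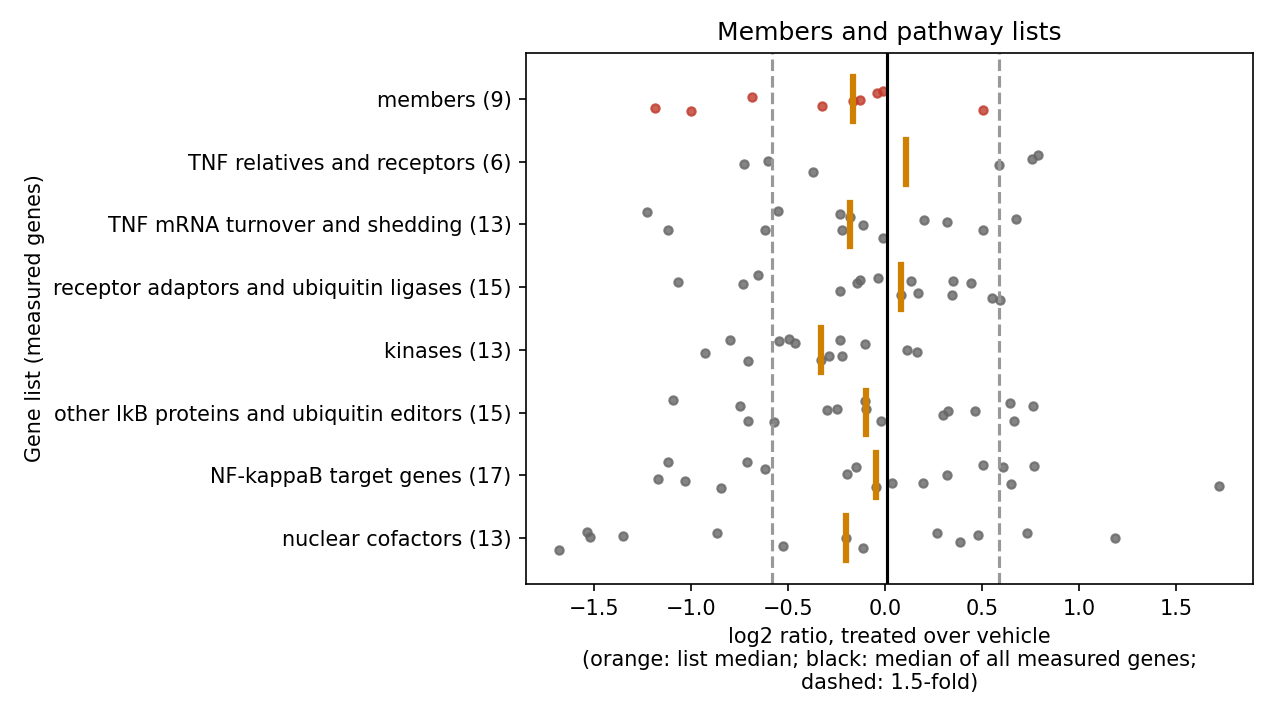
Log2 ratio of treated over vehicle for each measured gene of the members (red) and of the 7 pathway lists (grey), 1 point per gene with vertical scatter for visibility only; orange bars are list medians, the black line is the median of all measured genes at 0.01 and dashed lines mark 1.5-fold. The medians of the lists lie between -0.33 and 0.10, with genes on both sides of 0 in each list. With length corrected (not drawn) the list medians lie between -0.36 and 0.20.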

How the data were processed

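The deposited table held RNA-seq counts for both libraries, whole numbers per gene symbol, with column names of the kind featureCounts writes, per the file headers. It also gives a length per gene, an exon sum in bases that was used as deposited. The submitters' processing notes name fastp 0.23.4, STAR 2.5.3a and featureCounts, and as build GRCh38, a human build that cannot be that of these mouse symbols. The annotation, strand setting and handling of multi-mapped reads were not given in the sources used here. Both count columns carry the sample descriptions.

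With 1 library per group edgeR's quasi-likelihood test has no residual degrees of freedom and was not run. Counts were scaled by TMM (edgeR 4.0.16, R 4.3.3) with factors 0.957 (treated) and 1.05 (vehicle). Among genes with 1 to 50 counts, 76.3% (treated) and 75.1% (vehicle) were even, so intervals were also computed with counts halved. The length correction subtracted the median log2 ratio in 50 bins of genes ordered by exon length. Principal transcript lengths came from GENCODE M21, for 9966 of 12264 measured genes. Alternatives were total-count, median-of-ratios (DESeq2 1.42.0) and upper-quartile scaling, no filter, a 10 CPM filter, 1 CPM added, counts halved, the length corrections and a 2-fold threshold. Calls, intervals and the length correction were tested on simulated counts. Python 3.11.15, scipy 1.17.1 and pandas 2.3.3 were used.

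Named genes are the 10 members and up to 3 genes per list with the largest log2 ratio in size among those with at least 100 counts over both libraries. Others were chosen after their values were seen: Tnfrsf1a, Tnfrsf1b, Zfp36, Zc3h12a, Rc3h2, Traf1, Tradd, Ikbkb, Nfkbib, Nfkbie, Nfkbid, Il6, Il12b, Lcn2, Saa3, Csf3, Ccl4, Bcl2a1d, Clec4e and those marked so. The members and lists were chosen with earlier results of these data known.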

Additional observations from a re-analysis of the deposited data

How the results depend on the processing

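No paired analysis was possible because each group held 1 library, and no library could be left out. The number of members called lower was 3, or 2 at the 2-fold threshold, where Rela was inside the limit. It was also 2 with the filter at 10 CPM, which removed Nfkbiz, Relb and Tnfaip3. At 2-fold 8.64% of all measured genes were lower and 4.19% higher. The number called higher was 0, and 1, Bcl3, with no filter. The median log2 ratio of the members was -0.17, and 0.024 after correction for exon length. Under the other settings it ran from -0.29 to -0.09. With the exon length correction Nfkb1, Rel and Tnfaip3 turned above 1, and so, barely, did Nfkb2 (0.991 to 1.02). Tnf, Rela and Nfkbiz stayed below 1 under each setting that kept them, with ratios of 0.381 to 0.524, 0.559 to 0.651 and 0.402 to 0.530. Relb stayed above 1 (1.24 to 1.48), but with the principal transcript its interval, 0.995 to 1.56, included 1. Over the 4 scalings 8 of 10 members kept their side of 1, and Nfkb2 (0.907 to 1.04) and Tnfaip3 (0.888 to 1.02) did not. Rel turned from 0.891 to 1.10 with the exon length correction and 1.43 with that for the principal transcript. Of all genes called at 1.5-fold, 46.3% were higher, against 32.3% under total counts, 53.8% under the upper quartile and 32.7% at 2-fold. At 2-fold 514 genes were higher and 1059 lower, against 2097 and 2429. Over the alternatives, 149 counts and medians of the pathway lists stayed and 54 moved, 11 of them at the 2-fold threshold, 9 with the exon length correction and 12 with that for the principal transcript, an alternative chosen once the data were known. Bcl3, Nfkbiz, Relb and Tnfaip3 have the widest counting intervals.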

Other observations

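Selected genes within 50 kb of Tnf in the deposited table, looked at after the data were seen, are given with and without the correction for exon length. Lta, 1157 bases from Tnf, had 14 against 6 counts, 2.48 (0.895 to 7.87), an interval that included 1. Ltb, 3060 bases away on the other side and transcribed from the opposite strand, had 199 against 274 counts, 0.771 (0.639 to 0.929), and 0.599 with length corrected. Lst1, a leukocyte-specific gene, had 313 against 388 counts, 0.857 (0.736 to 0.997), and 0.586 with length corrected. With counts halved the uncorrected intervals of both, 0.593 to 1.01 and 0.692 to 1.07, included 1. Nfkbil1, an IkappaB-like gene, had 1213 against 814 counts, 1.58 (1.45 to 1.73), which was called higher, but it stood at 1.18 with length corrected and was no longer called, and 16.4% of its exon bases lie in other genes. Prrc2a had 4011 against 9378 counts, 0.454 (0.438 to 0.471) and Ddx39b, an RNA helicase gene, 3875 against 3411 counts, 1.21 (1.15 to 1.26). Prrc2a and Ddx39b stood at 0.550 and 1.14 with length corrected. Atp6v1g2, a V-ATPase subunit gene that overlaps Nfkbil1, had 56 against 155 counts, 0.384 (0.277 to 0.524), and 0.314 with length corrected. With length corrected, Prrc2a, Lst1, Ltb and Atp6v1g2 were called lower, as Tnf was, and 0 measured genes in this window were called higher. With the principal transcript Prrc2a, at -0.52 in log2, was inside 1.5-fold. Lst1, Ltb and Atp6v1g2, at -0.93, -0.88 and -1.75, were not. Over all measured genes 16.4% were called lower and 12.2% higher with length corrected. Before the correction Prrc2a and Atp6v1g2 were called lower, and Nfkbil1 and Gm16181 higher. Gm16181 had 205 against 139 counts, 1.57 (1.26 to 1.96), and 1.16 with length corrected. It lies within the span of Nfkbil1 on the opposite strand, and the strand setting is not given, so their values may not be separate. Aif1, Mir8094 and Ddx39b were between the thresholds both ways. The measured genes here are few, and no more is read from them.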
